A study of Mus musculus with 26 samples.

Results

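The 56 genes described here encode proteins that copy DNA or that segregate chromosomes and divide the cell. They were taken from a list of 25 replication genes (Mcm2 to Clspn) and 31 mitosis genes (Mki67 to Cks2), and all 56 were found among the 55385 gene identifiers that both count tables share. Each of the 56 passed the filter on low counts in every fit. The samples were mouse intestinal organoids, epithelial structures grown in Matrigel from crypts of C57BL/6 mice, in medium with EGF, Noggin, R-spondin, the Wnt pathway activator CHIR-99021 and the ROCK inhibitor Y-27632, all of which the vehicle organoids received too. The treatments were vehicle, 25 µM of the fatty acid arachidonic acid (AA) and 50 nM of prostaglandin E2 (PGE2), with RNA taken on day 1, 3 or 6. Vehicle, AA and PGE2 had 3 libraries each on days 1 and 3, and vehicle and AA had 4 each on day 6. The treatment protocol names PGE2 and the series' design text a dimethyl analogue of it, so "PGE2" stands for either. Whether the replicate libraries came from separate cultures or animals is not given, so each p-value measures only the spread between these libraries.

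Before a cell copies its DNA, the origin recognition complex, Cdc6 and Cdt1 load the Mcm2 to Mcm7 helicase on replication origins. Cdc45 and the GINS complex then activate it, DNA polymerase alpha and primase start each strand, and the clamp Pcna holds the copying polymerases on the template. Mitosis is driven by the kinase Cdk1 with cyclins A and B, and by the Aurora and Polo kinases, while Cdc20 and Ube2c serve the anaphase-promoting complex, which ends it. Both gene groups are transcribed in waves: E2F factors drive replication genes around the start of S phase, and the MuvB complex with B-Myb and then FoxM1 drives mitosis genes in G2 through the cell cycle genes homology region (CHR), often beside CCAAT boxes bound by NF-Y. In the intestine these genes mark the dividing stem and transit-amplifying cells of the crypt. AA is the membrane fatty acid from which cyclooxygenases make PGE2.

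Stretches of the promoters of 9 genes described below are shown as examples of the letters counted in each group. Sequences are RefSeq's, on build GRCm38.p6, read 5′ to 3′ in the direction of the gene up to the last base before the annotated start, except for Cdc6, which ends further upstream. Capitals mark 3 kinds of letters, each searched on both strands. The E2F letters were TTTCCCGC, TTTGGCGC, TTTCGCGC and TTTGCCGC. The NF-Y box was searched as CCAAT. For the CHR the usual TTTGAA was searched, along with its palindromic form TTTAAA and a further form that reads TTCGAA. Stretches of up to 200 bases leave out matches further upstream: 1 to the CHR letters in Mcm5 and 1 to CCAAT in each of Cdk1 and Top2a. In Mcm5 and in Mcm6, 2 overlapping E2F matches on opposite strands form 1 run of capitals. The replication genes shown are Mcm5 (chr8:75109349-75109508, plus strand), Mcm6 (chr1:128359706-128359825, minus strand), Cdc6 (chr11:98908001-98908060, plus strand) and Pola1 (chrX:93632156-93632305, minus strand).
Mcm5: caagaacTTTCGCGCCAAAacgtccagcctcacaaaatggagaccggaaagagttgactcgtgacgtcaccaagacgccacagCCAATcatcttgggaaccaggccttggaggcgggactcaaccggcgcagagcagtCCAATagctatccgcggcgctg
Mcm6: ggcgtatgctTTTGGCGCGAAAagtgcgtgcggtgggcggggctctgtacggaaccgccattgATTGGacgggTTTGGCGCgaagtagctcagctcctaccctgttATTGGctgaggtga
Cdc6: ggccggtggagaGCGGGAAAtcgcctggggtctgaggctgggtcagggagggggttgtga
Pola1: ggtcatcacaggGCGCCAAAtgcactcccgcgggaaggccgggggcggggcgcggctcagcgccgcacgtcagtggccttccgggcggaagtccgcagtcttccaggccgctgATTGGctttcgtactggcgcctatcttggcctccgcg

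The mitosis genes shown are Ccnb1 (chr13:100786487-100786596, minus strand), Cdk1 (chr10:69352913-69353052, minus strand), Kif11 (chr19:37376322-37376381, plus strand), Top2a (chr11:99024190-99024389, minus strand) and Anln (chr9:22389207-22389356, minus strand). Cdk1 was the 1 mitosis gene matched with E2F letters as well, and Anln held none of these letters before its start.
Ccnb1: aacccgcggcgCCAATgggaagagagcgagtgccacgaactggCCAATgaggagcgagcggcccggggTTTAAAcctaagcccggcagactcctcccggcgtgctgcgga
Cdk1: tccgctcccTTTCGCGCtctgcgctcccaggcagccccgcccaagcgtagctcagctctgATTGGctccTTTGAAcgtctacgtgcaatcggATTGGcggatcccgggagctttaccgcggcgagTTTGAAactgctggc
Kif11: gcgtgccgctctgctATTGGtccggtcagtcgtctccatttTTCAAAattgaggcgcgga
Top2a: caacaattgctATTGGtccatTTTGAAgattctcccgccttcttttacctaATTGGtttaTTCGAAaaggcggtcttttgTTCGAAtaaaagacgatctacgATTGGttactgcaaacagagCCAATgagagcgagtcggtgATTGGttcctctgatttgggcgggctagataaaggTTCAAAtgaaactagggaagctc
Anln: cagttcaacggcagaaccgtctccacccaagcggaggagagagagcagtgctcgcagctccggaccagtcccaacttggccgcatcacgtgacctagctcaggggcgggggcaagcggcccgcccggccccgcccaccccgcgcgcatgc

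The RefSeq promoter table held 21 of the 25 replication genes and 26 of the 31 mitosis genes. In the 250 bases before the start, E2F letters stood in 6 of 23 replication promoters (26.1%) and 1 of 27 mitosis promoters (3.7%), against 1.86% of all 32851 promoters in the table. CHR letters stood in 14 of 27 mitosis promoters (51.9%) and 5 of 23 replication promoters (21.7%), against 26.2% of all. CCAAT was in 81.5% of mitosis and 73.9% of replication promoters, against 33.8% of all, and CHR with CCAAT was in 48.1%, 17.4% and 9.21%. When the 50 bases after the start were added, CHR letters stood in 24 of 27 mitosis promoters (88.9%) and 28.8% of all. Among the 23 replication promoters, 6 (26.1%) then had CHR letters and 9 (39.1%) had E2F letters, the latter against 2.26% of all. A match of letters is a description and not a bound site.

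Total counts were 10088285 to 14615719 per library on days 1 and 3 and 16141385 to 19762827 on day 6. Levels are CPM, a gene's counts relative to its library's total after scaling by the trimmed mean of M values within each table, so day 6 levels were scaled apart from those of days 1 and 3. The share of mitochondrial ribosomal RNA was 6.74 to 10.3% on days 1 and 3 and at most 0.266% on day 6. All 8 epithelial markers were present in every library. Fibroblast and smooth muscle markers (10 genes) summed to at most 3.33 CPM, immune markers (10 genes) to at most 7.51 CPM, of which Cd68 made up most, and endothelial markers (6 genes) to at most 3.40 CPM. The summed epithelial markers moved with treatment: 6599 to 7439 CPM with vehicle, 10147 to 10547 with AA and 12727 to 13362 with PGE2 on day 1, and 5278 to 5817, 7608 to 8772 and 9822 to 10097 on day 3. With each treatment 5 of the 8 markers were called higher on each of these days, Krt8 and Krt19 among them. On day 1, Cdx1 and Cdx2 were called lower with AA, and these and Epcam with PGE2, and on day 3, 0 were lower with AA and 1, Cdx1, with PGE2. On day 6 the sums were 4289 to 5030 with vehicle and 4618 to 5021 with AA. The immune sum also moved with treatment, at 1.84 to 2.43 CPM with vehicle, 4.06 to 4.53 with AA and 4.27 to 5.42 with PGE2 on day 1, and 2.52 to 3.27, 3.86 to 5.98 and 5.35 to 7.51 on day 3. The endothelial sum was 1.22 to 1.95 CPM with vehicle and 2.96 to 3.40 with PGE2 on day 3. Of these markers Nkg7, a gene of cytotoxic lymphocytes, was at 0 in all 26 libraries, and the T cell gene Cd3e in 19. Cd68, Csf1r and Tie1 were called higher with AA and with PGE2 on days 1 and 3. The endothelial marker Tie1, at most 1.66 CPM, had log2 fold changes of 2.46 and 4.25 with AA and 2.00 and 5.32 with PGE2. The immune marker Csf1r, at most 1.01 CPM, had 2.15 and 1.78 with AA and 2.18 and 2.99 with PGE2. Pdgfrb, of the fibroblast and smooth muscle list, was called lower with PGE2 on day 1 (-1.88). The part of these markers in the results below was not tested.

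Per kilobase of annotated exon, the vehicle libraries of day 1 held most RNA of Pcna (109.9 ± 10.5 CPM per kb, SD, n = 3), followed by the proliferation antigen Mki67 (92.6 ± 5.39), topoisomerase Top2a (82.1 ± 1.09) and the ribonucleotide reductase subunit Rrm2 (79.5 ± 1.92). Top2a and Rrm2 did not differ beyond their spread. The lowest levels per length were those of the kinetochore protein Ndc80 (5.23 ± 0.748) and the repair helicase Brip1 (5.33 ± 0.452), which did not differ beyond their spread. Exons of 14 members overlap a gene on the other strand in the GENCODE M21 annotation, among them Gins2 (2758 of 4097 exon bases), Fen1 (2039 of 2422), Kif20a and Rfc2. The libraries were strand-marked but the strand setting of the counting is not given, so the values of these members are uncertain.

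**Figure D1:**
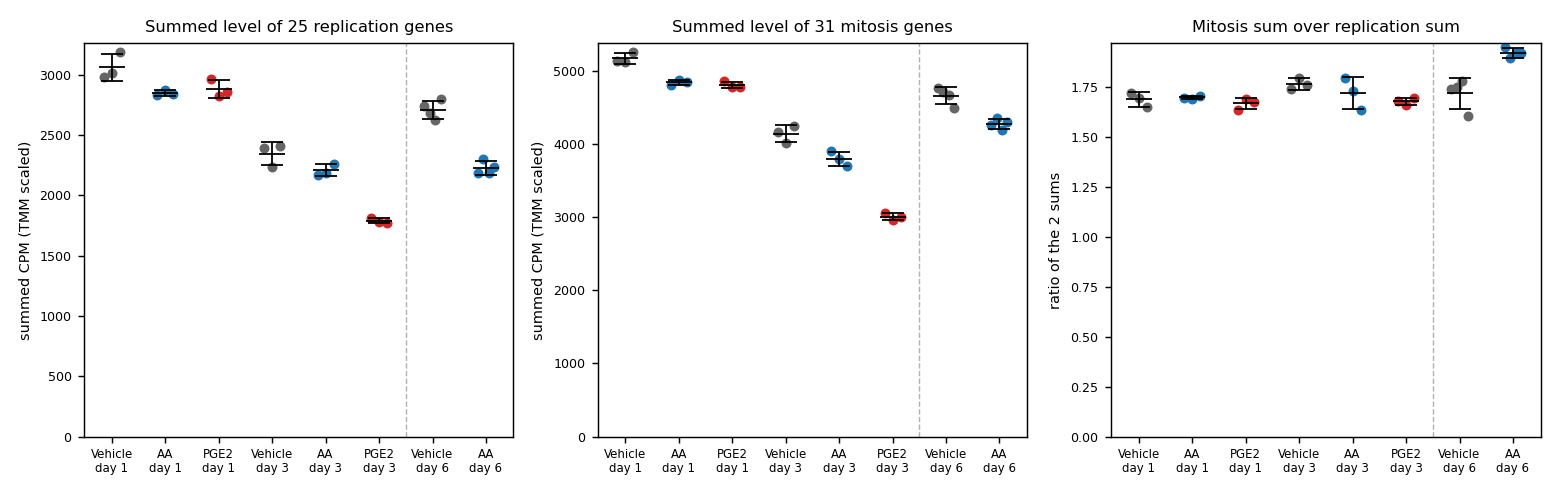
Summed CPM of the 25 replication genes (left) and 31 mitosis genes (middle), and the ratio of the mitosis sum to the replication sum (right), in each of the 26 libraries by treatment and day. Points are libraries, black bars show the mean and SD, and the dashed line separates day 6, which was scaled apart. The PGE2 libraries of day 3 lie lowest in both sums, between 1774 and 1815 CPM for replication and between 2960 and 3051 for mitosis, and the AA libraries of day 6 have the highest ratios, 1.89 to 1.95.

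In vehicle organoids nearly the whole set was lower on day 3 than on day 1. Of the 25 replication genes 24 fell and 0 rose, with a median log2 change of -0.37, and of the 31 mitosis genes all 31 fell, with a median of -0.31. Over all 14850 genes tested, 20.5% fell, 19.8% rose and 40.3% changed in either direction, with a median of 0.04. Summed replication RNA was 2983 to 3191 CPM on day 1 and 2238 to 2409 on day 3. In RNA from whole organoids, fewer dividing cells and less of this RNA per dividing cell cannot be told apart. With scaling by total counts alone, 23 and 25 members fell, and the split over all genes moved from 2943 higher and 3039 lower to 3726 higher and 2042 lower.

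Among the nucleotide supply genes, Rrm2 stood at 216, 219 and 226 CPM on day 1 and at 139, 128 and 134 CPM on day 3. It had the lowest log2 change of the replication genes (-0.72 ± 0.04, SE, adjusted p = 3.6e-13), while its partner subunit Rrm1 fell by 0.37 ± 0.05. Within the helicase, Mcm5 was at 231, 227 and 241 CPM and then at 175, 156 and 172 CPM (-0.47 ± 0.05, adjusted p = 7.2e-09), and Mcm3 fell by 0.50 ± 0.05. The Mcm5 groups did not overlap, with day 3 below day 1, as in 23.7% of all genes. Pola1, the catalytic subunit of polymerase alpha, was the exception, at 84.3, 87.1 and 82.2 CPM on day 1 and 74.2, 91.2 and 75.1 CPM on day 3 (-0.08 ± 0.06, adjusted p = 0.33). Its second library of day 3 was higher than any of day 1.

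Of the mitosis genes, Aurka, the kinase of the spindle poles, went from 95.0, 98.2 and 107 CPM to 67.9, 63.4 and 69.2 CPM (-0.58 ± 0.05, adjusted p = 7.2e-10). Ccnb1, cyclin B1, went from 140.0, 139 and 157 CPM to 106, 97.3 and 104 CPM (-0.50 ± 0.05, adjusted p = 9.0e-09). The groups were apart in both genes, with day 3 below day 1, as in 23.7% of all genes. Hmmr, a spindle assembly protein, and Birc5 (survivin), a subunit of the chromosomal passenger complex, fell by 0.57 ± 0.04 and 0.52 ± 0.05. Smc4, a condensin subunit, had the smallest fall (0.13 ± 0.05, adjusted p = 0.0248), and its libraries overlapped between the days.

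**Figure D2:**
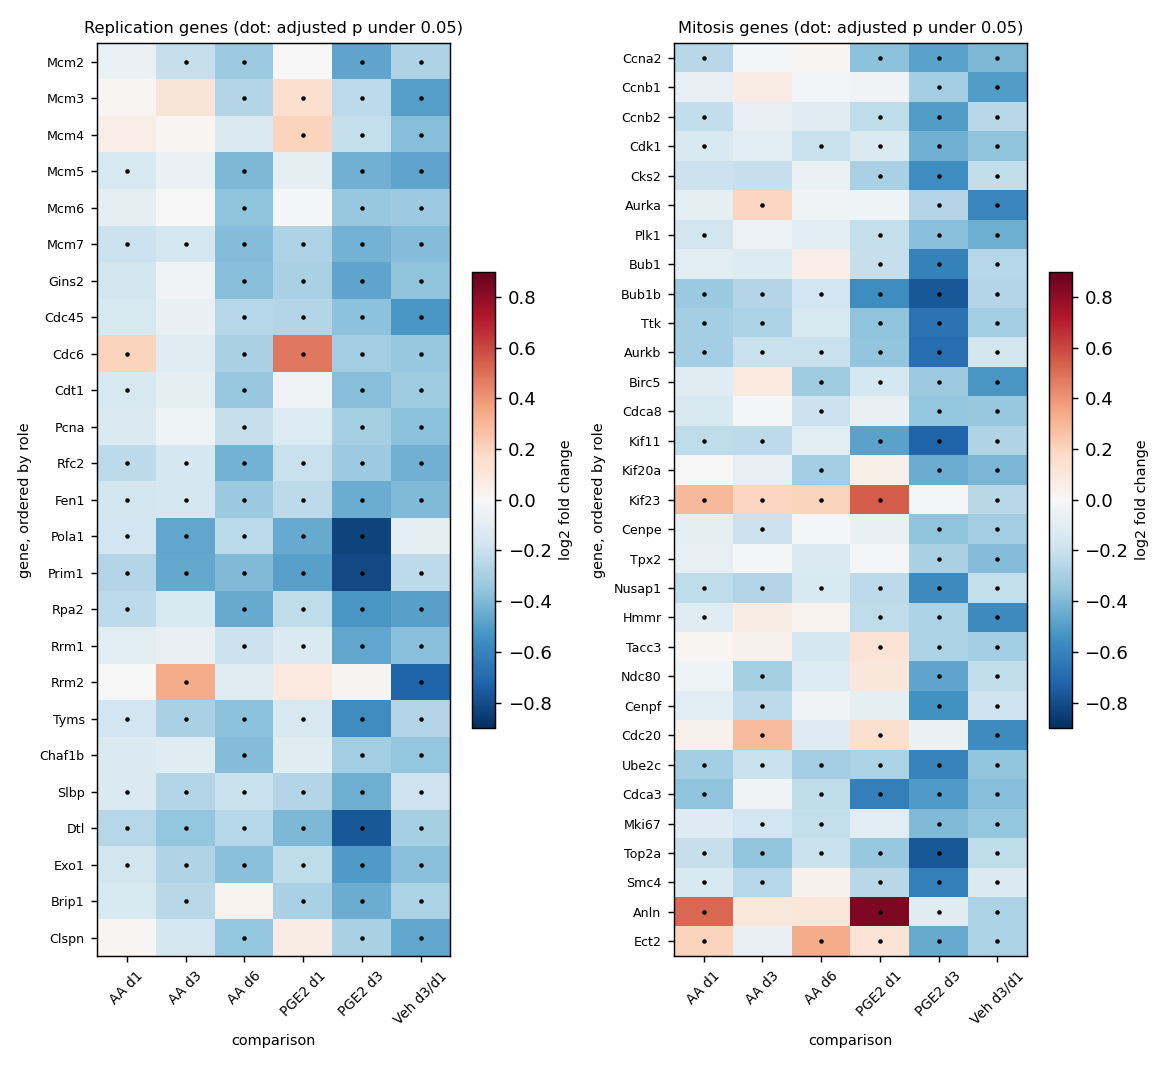
Log2 fold changes of the replication genes (left) and mitosis genes (right), ordered by role, for AA against vehicle on days 1, 3 and 6, PGE2 against vehicle on days 1 and 3, and vehicle on day 3 against day 1. Color gives the log2 fold change, blue for lower and red for higher, and a dot marks an adjusted p under 0.05. The PGE2 day 3 column is blue for 24 of 25 replication genes and for all 31 mitosis genes, while the day 1 columns mix lower genes with higher ones such as Anln, Kif23 and Cdc6.

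One day of PGE2 moved the set in both directions. Replication genes divided into 14 that fell and 3 that rose, with a median log2 fold change of -0.14, and mitosis genes into 17 that fell and 5 that rose, with a median of -0.16. Over all genes 28.9% fell, 27% rose and 55.9% changed in either direction, with a median of -0.02. The 68% of replication and 71% of mitosis members called stand beside that background of 55.9%. The replication count of 17 was 12 to 19 with a library left out, and 12 of 25 without the third vehicle library. Of the calls, 11 of 17 replication and 16 of 22 mitosis were kept in every alternative. The genes that rose by most were Anln, which scaffolds the contractile ring, Kif23, the kinesin of the central spindle, and Cdc6, the licensing factor. Those that fell by most were Cdca3, Bub1b, Prim1 and Kif11.

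Anln stood at 142, 143 and 146 CPM in the vehicle libraries and at 268, 246 and 255 CPM with PGE2 (log2 fold change 0.84 ± 0.04, adjusted p = 1.1e-16). Kif23 was at 138, 142 and 145 CPM and at 212, 209.7 and 197 CPM (0.54 ± 0.05, adjusted p = 2.9e-11). In both genes every PGE2 library lay above every vehicle library, which was so for 30.3% of all genes tested. Ect2, which activates RhoA at the division plane, rose by less (0.12 ± 0.05, adjusted p = 0.0237), as did Tacc3, a spindle protein (0.13 ± 0.05, adjusted p = 0.0368). Cdc20 was at 132, 132 and 150.4 CPM and at 160.5, 152 and 145 CPM, groups that overlap (0.14 ± 0.06, adjusted p = 0.0497). Ect2, Tacc3 and Cdc20 were no longer called as higher with total counts alone. There the mitosis split was 2 higher and 21 lower in place of 5 and 17.

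Cdc6 stood at 44.6, 43.9 and 48.0 CPM with vehicle and at 63.4, 63.3 and 62.5 CPM with PGE2 (0.47 ± 0.06, adjusted p = 9.6e-08). Its partner in licensing, Cdt1, was at 79.4, 82.6 and 75.9 CPM and at 79.3, 75.7 and 77.4 CPM, overlapping (-0.03 ± 0.06, adjusted p = 0.662). The helicase subunits did not move alike: Mcm4 rose (0.20 ± 0.05) and so did Mcm3 (0.15 ± 0.05, with overlapping libraries), Mcm7 fell (-0.27 ± 0.05, adjusted p = 1.9e-05), and Mcm2, Mcm5 and Mcm6 did not pass (0.00, -0.08 and -0.01). Of the 6 clamp and polymerase genes 5 fell. Prim1, the small primase subunit, went from 68.4, 64.3 and 66.5 CPM to 50.5, 44.6 and 46.7 CPM (-0.49 ± 0.06, adjusted p = 2.5e-08). Pola1 fell by 0.45 ± 0.06, while Pcna, at 249, 250.1 and 293 CPM and 247, 228 and 252 CPM, overlapped (-0.12 ± 0.06, adjusted p = 0.0837). Dtl, the substrate adaptor through which Cdt1 is degraded in S phase, fell by 0.40 ± 0.05. Clspn, which carries the replication checkpoint signal to Chk1, did not pass (0.07 ± 0.06), at 60.9, 57.6 and 57.2 CPM with vehicle and 64.6, 60.7 and 58.8 CPM with PGE2.

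On the mitosis side 4 of 5 checkpoint and mitotic kinases fell, led by Bub1b, the BubR1 kinase of the spindle checkpoint (122, 125 and 133 CPM against 86.2, 85.3 and 87.3 CPM, -0.56 ± 0.05, adjusted p = 7.3e-11). Aurka was the exception (-0.04 ± 0.05). Cdca3, which promotes entry into mitosis, had the lowest value (102, 101 and 108 CPM against 65.2, 67.9 and 70.4 CPM, -0.61 ± 0.05, adjusted p = 2.0e-11), followed by Kif11, the motor that separates the spindle poles (-0.48 ± 0.05). The groups of Cdca3 and Kif11 did not overlap, with PGE2 below vehicle, as in 32.5% of all genes. Of the cyclin and Cdk1 genes, Ccna2 fell by 0.37 ± 0.05 and Ccnb1 did not pass (-0.03 ± 0.05). Mki67, at 961, 965 and 869 CPM with vehicle and 878, 876 and 857 CPM with PGE2, overlapped and was not called (-0.10 ± 0.06, adjusted p = 0.154), and Top2a fell by 0.34 ± 0.05.

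After 3 days of PGE2 the set had shifted as a block. Of the replication genes 24 of 25 fell and 0 rose, with a median of -0.44, and of the mitosis genes 29 of 31 fell and 0 rose, with a median of -0.46. The background was 30.1% falling and 58.9% called in either direction, with a median of -0.04. Every call but that of Anln was kept under each alternative setting and with each library left out. In all 53 genes that fell, every PGE2 library lay below every vehicle library, which was so for 31.9% of all genes tested.

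Each role contributed. All 8 helicase genes fell: Mcm2 from 142, 135 and 151 CPM to 103, 102 and 103 CPM (-0.48 ± 0.05, adjusted p = 5.1e-09), and Mcm6 from 199, 176 and 183 CPM to 147, 146 and 148 CPM (-0.34 ± 0.05). The polymerase alpha and primase pair had the lowest values: Pola1 was at 74.2, 91.2 and 75.1 CPM with vehicle and 44.4, 43.1 and 46.9 CPM with PGE2 (-0.84 ± 0.07, adjusted p = 2.6e-12), and Prim1 fell by 0.81 ± 0.06. Dtl followed (-0.76 ± 0.06, adjusted p = 6.3e-13), with Tyms, the thymidylate synthase, at -0.56 ± 0.06. Rrm1 fell by 0.47 ± 0.05, but Rrm2, the other subunit of the same enzyme, stood at 139, 128 and 134 CPM and 137, 133 and 138 CPM, fully overlapping (0.03 ± 0.05, adjusted p = 0.644). Slbp, which binds histone mRNA, went from 61.8, 62.4 and 69.3 CPM to 48.1, 46.4 and 48.2 CPM (-0.44 ± 0.05).

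In mitosis the lowest values were those of Top2a, at 647, 593 and 657 CPM with vehicle and 376, 374 and 369 CPM with PGE2 (-0.76 ± 0.05, adjusted p = 1.1e-14), and of Bub1b (-0.76 ± 0.05). Kif11 fell by 0.72 ± 0.05 and Smc4 by 0.61 ± 0.05. Plk1, the Polo kinase, went from 101, 90.3 and 103 CPM to 79.4, 74.6 and 73.4 CPM (-0.38 ± 0.05, adjusted p = 3.8e-07). Ube2c, the ubiquitin carrier of the anaphase-promoting complex, went from 89.5, 75.0 and 79.8 CPM to 57.8, 45.4 and 58.3 CPM (-0.60 ± 0.08). Mki67, not called on day 1, was at 721, 752 and 728 CPM and 564, 551 and 557 CPM (-0.40 ± 0.06, adjusted p = 8.3e-07). The 2 genes that did not pass were Kif23, at 112, 126 and 119.8 CPM and 121, 116 and 116 CPM (-0.01 ± 0.05), and Cdc20, at 94.6, 90.7 and 94.4 CPM and 96.0, 81.4 and 91.3 CPM (-0.06 ± 0.07). The smallest fall was that of Anln (0.11 ± 0.05, adjusted p = 0.0348).

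**Figure D3:**
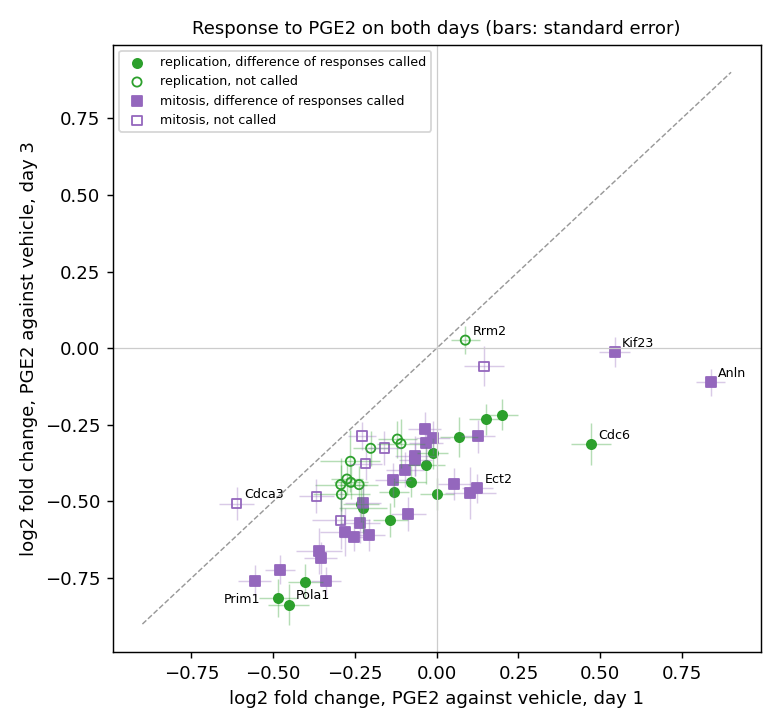
Log2 fold change of each member with PGE2 against vehicle on day 1 (horizontal) and day 3 (vertical), with standard errors as bars; circles are replication genes, squares mitosis genes, and filled symbols those whose 2 responses differed at an adjusted p under 0.05. On the dashed line both responses are equal; every member but Cdca3 lies below it, with Anln (0.84 and -0.11) farthest away.

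The response to PGE2 differed between the days when the difference itself was tested. The response on day 3 minus that on day 1 was negative for all 25 replication genes and 30 of 31 mitosis genes, and it passed the threshold for 15 and 24 of them, all lower, with medians of -0.33 and -0.30. Over all genes 11.6% were lower and 24.2% called, with a median of -0.02, and with total counts alone the calls over all genes moved from 1876 higher and 1716 lower to 2221 and 1277, and those of the members to 13 and 20, all lower. The lowest values were those of Anln (-0.95 ± 0.06, adjusted p = 8.0e-13), Cdc6 (-0.78 ± 0.09, adjusted p = 9.4e-08), Ect2 (-0.58 ± 0.07), Ndc80 (-0.57 ± 0.11) and Kif23 (-0.56 ± 0.07). Kif20a (-0.50 ± 0.07), Mcm2 (-0.48 ± 0.07), Mcm4 (-0.42 ± 0.07) and Tyms (-0.42 ± 0.08) came next by p in their lists. Cdca3 had the highest value (0.10 ± 0.08, adjusted p = 0.354) and Rrm2 the highest of the replication genes (-0.06 ± 0.06).

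**Figure D4:**
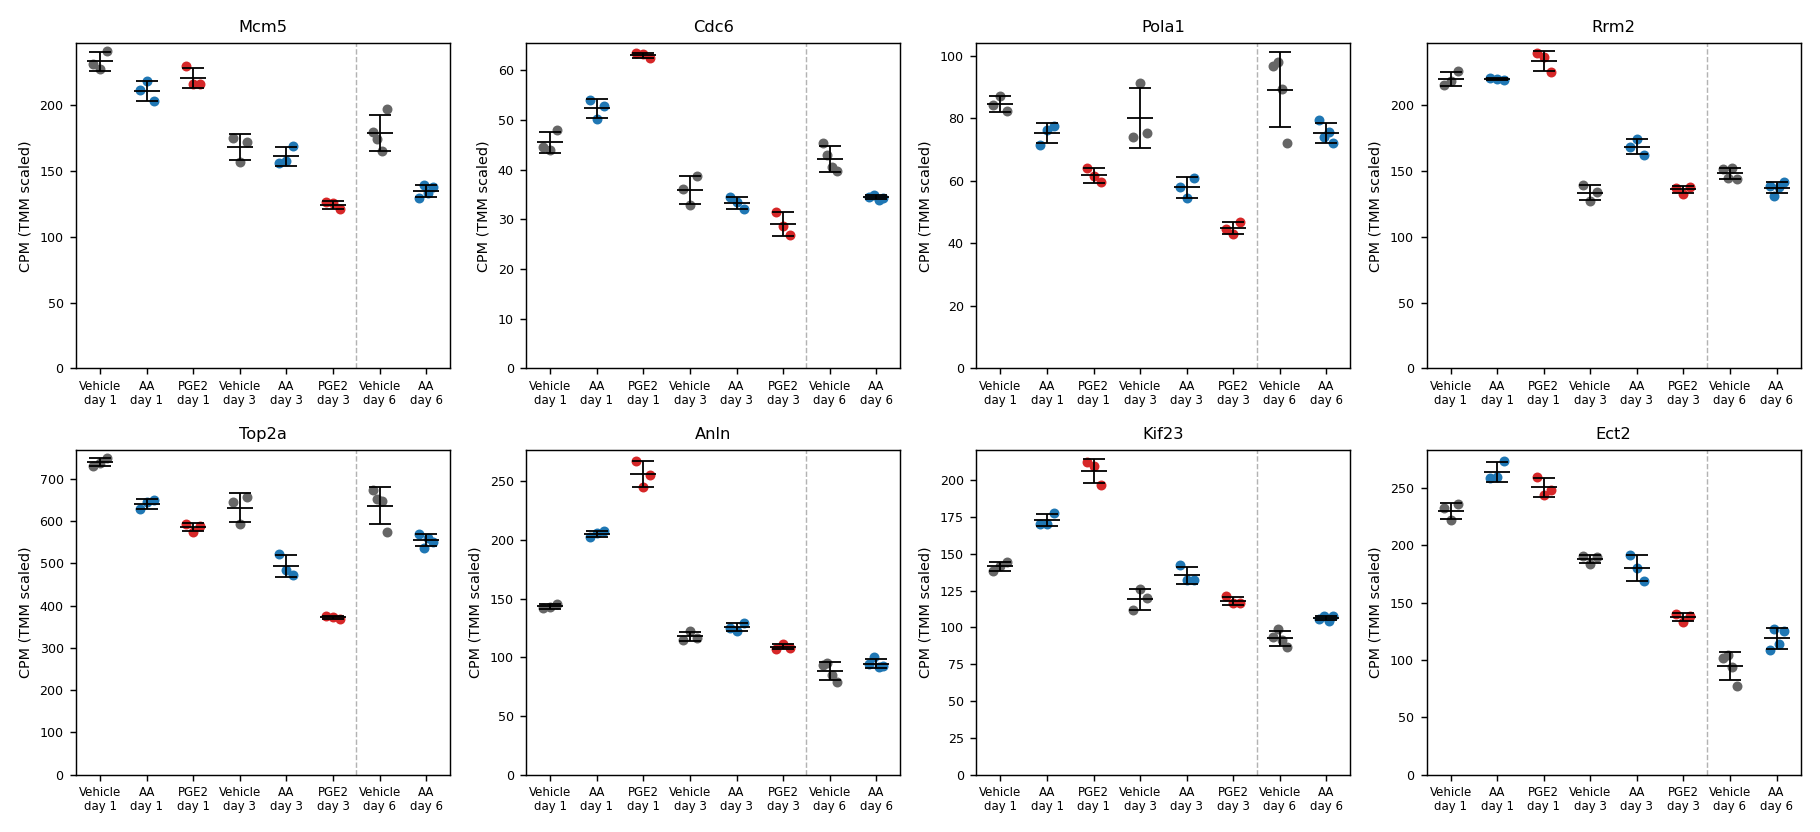
CPM of 8 members in each library by treatment and day, with mean and SD as black bars; the dashed line separates day 6, which was scaled apart. Anln, Kif23 and Cdc6 stand highest with PGE2 on day 1 (256, 206 and 63.1 CPM on average) and show no such rise on day 3, Mcm5, Pola1 and Top2a are lowest with PGE2 on day 3, and Rrm2 is highest with AA among the day 3 groups.

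One day of AA also moved members in both directions. Of the replication genes 12 fell and 1 rose, with a median of -0.14, and of the mitosis genes 14 fell and 3 rose, with a median of -0.11. The background was 22.2% falling, 19.5% rising and 41.7% called, with a median of -0.03. The replication count rested partly on the processing: it was 8 with DESeq2, which called 5230 of all 14850 genes, 8 without mitochondrial and ribosomal RNA-like genes, where 5901 of 14824 were called, and 8 without the third vehicle library. In the first 2 of these settings the members' share was below that of all genes.

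The comparisons of AA and of PGE2 share the vehicle libraries, so their values are given side by side only. Of the 4 genes that rose with AA, Anln was at 202, 206 and 207 CPM with AA (0.52 ± 0.04, adjusted p = 2.8e-11), Kif23 at 171, 171 and 178 CPM (0.29 ± 0.05, adjusted p = 9.9e-06), Ect2 at 258, 259.7 and 274 CPM against 232, 222 and 236 CPM with vehicle (0.20 ± 0.05, adjusted p = 7.7e-04), and Cdc6 at 54.1, 50.3 and 52.7 CPM (0.20 ± 0.06, adjusted p = 0.00787). In each, all AA libraries were above all vehicle libraries, which was so for 24.6% of all genes. The replication genes with the smallest p among those that fell were Dtl (-0.25 ± 0.05), Prim1 (-0.27 ± 0.06), Rfc2, a clamp loader subunit (-0.24 ± 0.05), and Mcm7 (-0.19 ± 0.05). Among the mitosis genes they were Cdca3 (-0.36 ± 0.05), Bub1b (-0.33 ± 0.05), the chromosomal passenger kinase Aurkb (-0.31 ± 0.05) and Kif11 (-0.23 ± 0.04). Plk1 stood at 129, 133 and 138 CPM with vehicle and 115, 124 and 118 CPM with AA (-0.16 ± 0.05, adjusted p = 0.00862). Its groups were apart but close, with AA below vehicle, as in 29% of all genes.

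On day 3 AA again moved members in both directions, with more of them lower than higher. The members called were 48% of the replication and 48.4% of the mitosis list, near the 41.3% of all genes. Of the replication genes 11 fell and 1 rose (median -0.15), and of the mitosis genes 12 fell and 3 rose (median -0.08), against 20.1% falling, 21.2% rising and 41.3% called over all genes (median -0.03). With total counts alone the calls over all genes moved from 3143 higher and 2986 lower to 2459 and 3903, and those of the mitosis genes from 3 and 12 to 1 and 16.

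The replication gene that rose was Rrm2, at 169, 174 and 163 CPM with AA and 139, 128 and 134 CPM with vehicle (0.33 ± 0.05, adjusted p = 4.5e-07). Its groups were well apart, with AA above vehicle, as in 23% of all genes. Pola1 and Prim1 fell by 0.47 ± 0.06 and 0.46 ± 0.06, Dtl by 0.35 ± 0.05 and Tyms by 0.29 ± 0.06. Of the 8 helicase genes only Mcm2 and Mcm7 fell. The libraries of Mcm7 overlapped, and its call was not kept in every alternative setting. Of the mitosis genes, Cdc20 rose, from 94.6, 90.7 and 94.4 CPM to 104, 111 and 125 CPM (0.28 ± 0.07, adjusted p = 9.0e-04), and Aurka went from 67.9, 63.4 and 69.2 CPM to 72.8, 76.2 and 80.4 CPM (0.19 ± 0.05). Kif23 was higher by 0.19 ± 0.05, and neither it nor Aurka was called with total counts alone. All 3 chromosome structure genes fell: Top2a, at 647, 593 and 657 CPM and 522, 486 and 472 CPM (-0.36 ± 0.05, adjusted p = 2.3e-07), Smc4 (-0.26 ± 0.05) and Mki67 (-0.17 ± 0.06), the last not called without the third vehicle or the third AA library. Bub1b and Kif11 fell by 0.27 ± 0.05 and 0.24 ± 0.05, and none of the 5 cyclin and Cdk1 genes passed.

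The responses to AA on days 1 and 3 differed for few members, at a share below that of all genes. The difference, day 3 minus day 1, passed for 3 replication genes (1 higher, 2 lower) and 5 mitosis genes (3 higher, 2 lower), against 18% of all genes, with 10% higher, 7.95% lower and a median of 0.00. The medians of both lists were 0.02. With total counts alone the calls over all genes moved from 1487 higher and 1181 lower to 986 and 1410. Rrm2 (0.33 ± 0.06, adjusted p = 2.5e-04), Cdca3 (0.33 ± 0.07), Aurka (0.28 ± 0.07) and Ccna2 (0.24 ± 0.08) were higher on day 3, and Anln (-0.42 ± 0.06, adjusted p = 1.1e-05), Cdc6 (-0.31 ± 0.09), Pola1 (-0.30 ± 0.09) and Ect2 (-0.26 ± 0.07) were lower. The calls of Cdc6, Pola1, Ccna2 and Aurka were not kept in every alternative. The mitosis split became 1 higher and 2 lower with total counts alone, 2 and 3 without the third vehicle library of day 1, and 2 and 4 without the second vehicle library of day 3.

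On day 6 most replication genes and fewer of the mitosis genes were called. With AA 22 of 25 replication genes fell and 0 rose, with a median of -0.34, while of 31 mitosis genes 11 fell and 2 rose, with a median of -0.11. Over all genes 15.5% fell, 15.3% rose and 30.7% were called, with a median of -0.01. The difference between the 2 lists was not tested. The replication count stayed between 19 and 23 with any library left out. The mitosis count was 8 without the first vehicle library, 8 without the first and 8 without the fourth AA library, and 6 without the third AA library, and it was 16 without the fourth vehicle library.

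All 6 clamp and polymerase genes, 7 of 8 helicase genes and both licensing genes fell. Mcm5 stood at 179, 174, 165 and 197 CPM with vehicle and 129, 139, 133 and 137 CPM with AA (-0.41 ± 0.06, adjusted p = 5.1e-04), and Mcm6 at 225, 222, 221 and 236 CPM and 170.1, 181, 172 and 179 CPM (-0.36 ± 0.05, adjusted p = 3.0e-04). Both pairs of groups were well apart, with AA below vehicle, as in 16.8% of all genes. The lowest value was that of Rpa2, a subunit of the single-strand DNA binding protein (53.6, 50.1, 50.9 and 55.2 CPM against 37.6, 40.4, 33.2 and 41.5 CPM, -0.46 ± 0.07, adjusted p = 7.0e-04), followed by Rfc2 (-0.43 ± 0.06). Prim1, at -0.40 ± 0.05, had the smallest p of the replication genes (adjusted p = 1.5e-04). Tyms fell by 0.37 ± 0.05 and Clspn, at 70.9, 69.3, 70.0 and 74.4 CPM and 58.7, 58.0, 52.2 and 54.1 CPM, by 0.35 ± 0.06. Pcna went from 259, 248, 257 and 254 CPM to 224, 218, 221 and 219.5 CPM (-0.21 ± 0.05), and Slbp from 95.6, 93.7, 90.0 and 90.8 CPM to 82.0, 83.2, 76.8 and 79.8 CPM (-0.20 ± 0.05). Cdt1 was at 58.6, 61.6, 55.9 and 75.7 CPM and 45.6, 56.7, 45.6 and 50.1 CPM, where the second AA library reached into the vehicle range (-0.34 ± 0.10, adjusted p = 0.0195). Mcm4, Rrm2 and Brip1 did not pass (-0.13, -0.11 and 0.03), and Pola1 (-0.24 ± 0.09, adjusted p = 0.0457) was lost in 10 of 14 alternative settings.

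Among the mitosis genes all 3 chromosomal passenger genes fell, led by Birc5, at 109, 99.7, 102 and 113 CPM with vehicle and 84.5, 89.5, 81.6 and 84.0 CPM with AA (-0.32 ± 0.06, adjusted p = 0.00145). Kif20a, a kinesin that carries this complex to the central spindle, fell by 0.31 ± 0.05. Cdk1 was at 141, 132, 134 and 139 CPM and 119, 119.7, 120.4 and 115 CPM (-0.20 ± 0.05), and Mki67 at 1139, 1167, 1170.2 and 1129.6 CPM and 978, 1054, 938 and 998 CPM (-0.21 ± 0.05, adjusted p = 0.011). The groups were apart in all of these, with AA below vehicle, as in 16.8% of all genes. Of the 13 mitosis calls 6 were kept in every alternative. Those of Mki67 and of Aurkb and Cdca8, the other chromosomal passenger genes, were not. Cyclins A and B were not called: Ccnb1 stood at 86.6, 83.5, 86.1 and 82.2 CPM and 83.9, 77.6, 85.8 and 85.8 CPM, overlapping (-0.02 ± 0.05), and Ccna2 at 0.01 ± 0.06 on the log2 scale. Nor were 4 of the 5 mitotic kinases, Aurka, Plk1, Bub1 and Ttk. Ect2 rose, from 102, 104, 93.9 and 77.2 CPM to 108, 127, 114 and 126 CPM (0.33 ± 0.09, adjusted p = 0.0146), and so did Kif23 (0.20 ± 0.05, adjusted p = 0.0127).

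The sum of the mitosis genes over that of the replication genes was 1.61 to 1.78 in the vehicle libraries of day 6, lowest in the fourth library, and 1.89 to 1.95 in the AA libraries. On days 1 and 3 it was 1.64 to 1.80 in all 18 libraries. Mki67 and Top2a make up a large share of the mitosis sum, and the ratio was given no test.

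**Figure D5:**
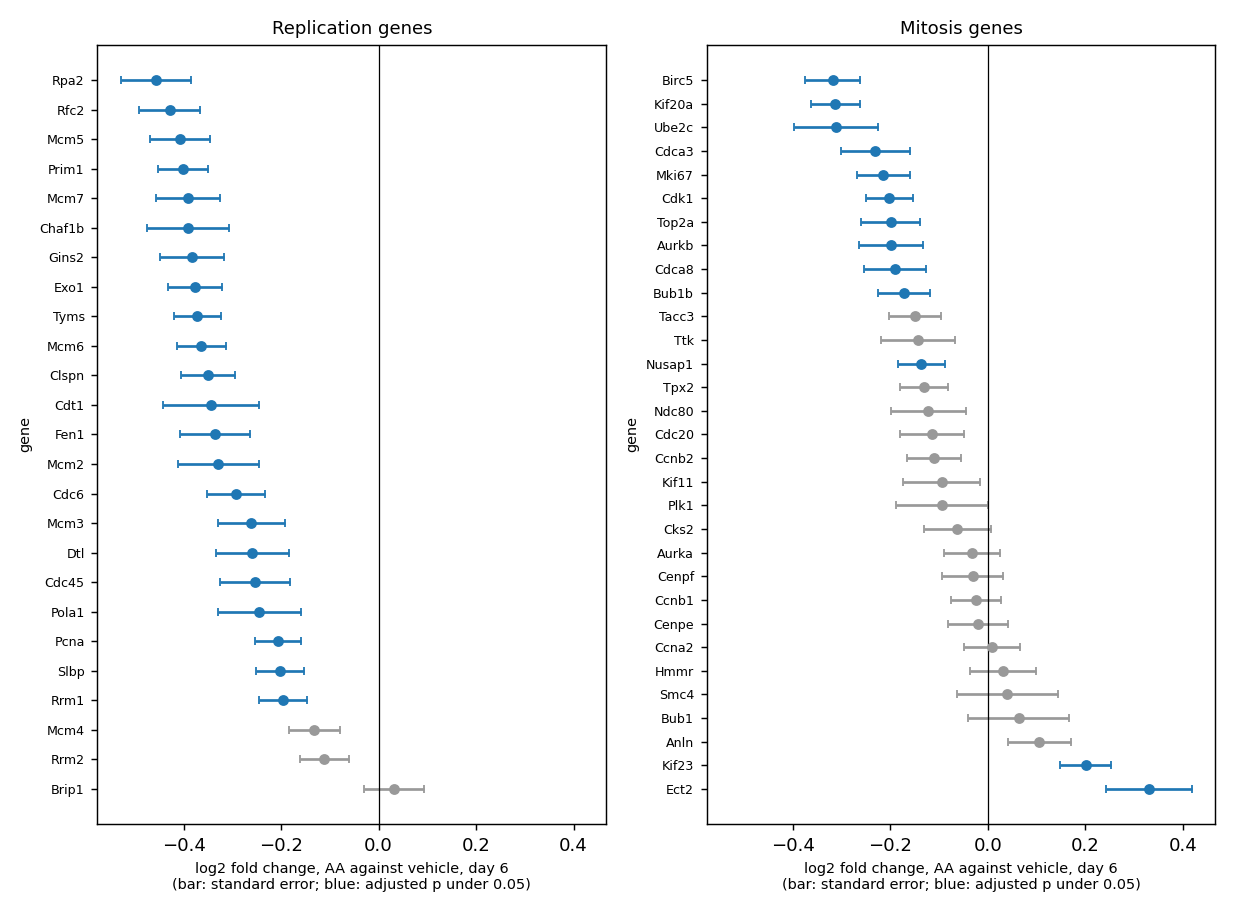
Log2 fold change with AA against vehicle on day 6 for each replication gene (left) and mitosis gene (right), sorted, with standard errors as bars; blue points had an adjusted p under 0.05 and grey points did not. Of the replication genes 22 points are blue and left of 0, down to -0.46 for Rpa2, while 18 of the 31 mitosis points are grey and the 2 blue points right of 0 are Ect2 and Kif23.

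In a joint fit of all 26 libraries, the response to AA on day 6 was lower than on day 3 for 8 replication genes and 0 were higher (median -0.20), and of the mitosis genes 4 were lower and 1 higher (median -0.01). Day 6 stood in a count table of its own, with at most 0.266% mitochondrial ribosomal RNA against 6.74 to 10.3% on days 1 and 3. A difference between the days and one between the tables cannot be told apart here. Over 15504 genes 10.4% were lower, 8.78% higher and 19.1% called, with a median of 0.00, and with total counts alone those calls moved from 1362 higher and 1607 lower to 1747 and 1020, and the replication calls to 1 and 5. Rrm2 (-0.46 ± 0.07, adjusted p = 7.1e-06), Mcm3 (-0.39 ± 0.09), Mcm6 (-0.37 ± 0.07) and Mcm5 (-0.36 ± 0.08) led the replication genes, and Brip1 had the highest value (0.26 ± 0.11, adjusted p = 0.0841). Of the mitosis genes Birc5 (-0.42 ± 0.08), Cdc20 (-0.41 ± 0.10), Kif20a (-0.25 ± 0.07) and Aurka (-0.24 ± 0.08) were lower, and Ect2 was higher (0.38 ± 0.10, adjusted p = 0.00666). The replication count fell to 5 without the second vehicle library of day 3, 4 without the third AA library of day 3 and 5 without the third AA library of day 6. The mitosis count was 3 without the first vehicle library of day 3, 3 without the third AA library of day 3 and 8 without the second vehicle library of day 6.

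AA and PGE2 were given at doses that differ, 25 µM and 50 nM, so the libraries can be set side by side but not read as a ranking of the compounds. On day 1, 3 replication genes were higher with AA and 3 lower, and 5 mitosis genes were higher and 2 lower. Over all genes 11.3% were higher and 16.5% lower. The members called were 24% of the replication and 22.6% of the mitosis list, near the 27.7% of all genes. These counts are therefore no result about the members. Pola1 stood at 71.6, 76.3 and 77.6 CPM with AA and at 64.0, 61.5 and 59.5 CPM with PGE2. Its groups were apart, with AA above PGE2, as in 20.8% of all genes. Pola1 (0.28 ± 0.06), Prim1 (0.22 ± 0.06) and Dtl (0.15 ± 0.05) were higher with AA, and Cdc6 (-0.27 ± 0.06), Mcm4 (-0.14 ± 0.05) and Mcm3 (-0.14 ± 0.05) were lower. Of the mitosis genes Kif11 (0.25 ± 0.05), Cdca3 (0.25 ± 0.05), Bub1b (0.22 ± 0.05), Top2a (0.13 ± 0.05) and Hmmr (0.12 ± 0.04) were higher with AA, and Anln (-0.32 ± 0.04, adjusted p = 4.9e-07) and Kif23 (-0.25 ± 0.05) were lower. With total counts alone the calls became 6 higher and 1 lower for replication and 9 higher and 2 lower for mitosis, and over all genes 2570 higher and 1746 lower in place of 1671 and 2448. In a fit of these groups alone 10 replication and 13 mitosis genes were called, and the replication count was 3 without the first or the second AA library and 3 without the second PGE2 library.

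On day 3 the set was higher with AA than with PGE2 almost throughout. Of the replication genes 23 were higher (median 0.28) and of the mitosis genes 30 (median 0.36), and 0 were lower, against 18.1% higher, 20.3% lower and 38.5% called over all genes, with a median of -0.01. In 54 of the 56 genes every AA library lay above every PGE2 library, against 22.4% of all genes, and Brip1 and Clspn overlapped. Kif11 stood at 76.2, 75.3 and 73.7 CPM with AA and 52.4, 52.5 and 55.6 CPM with PGE2 (0.49 ± 0.05, adjusted p = 1.7e-09). Bub1 and Bub1b (0.49 ± 0.05 each) and Aurkb (0.48 ± 0.05) were close to it. Of the replication genes, Rrm1 (0.40 ± 0.05, adjusted p = 3.8e-08), Mcm5 (0.37 ± 0.05), Dtl (0.41 ± 0.06) and Rrm2 (0.31 ± 0.04) had the smallest p, and Gins2, of the GINS complex, had the highest value (0.45 ± 0.10). Brip1, Clspn and Ndc80 did not pass (0.20, 0.14 and 0.17). Of the calls, 18 of 23 replication and 29 of 30 mitosis were kept in every alternative. The replication count was 20 to 23 with a library left out. With total counts alone the calls over all genes moved from 2695 higher and 3016 lower to 2095 and 3373.

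Other genes of the same pathways were counted from further lists. Of 46 other replication genes 1 rose and 21 fell with AA on day 1, 0 and 21 on day 3, and 0 and 33 on day 6. With PGE2 5 rose and 22 fell on day 1 and 0 and 39 on day 3. Of 62 other mitosis genes the counts were 3 and 26, 3 and 28, and 1 and 19 with AA on days 1, 3 and 6, and 9 and 28, then 2 and 52, with PGE2. In vehicle organoids 37 of the replication and 45 of the mitosis genes fell from day 1 to day 3 and 0 rose. The shares called, for replication and mitosis, were 47.8% and 46.8% with AA on day 1, against 41.7% of all genes, 45.7% and 50% on day 3, against 41.3%, and 71.7% and 32.3% on day 6, against 30.7%. With PGE2 they were 58.7% and 59.7% on day 1, against 55.9%, and 84.8% and 87.1% on day 3, against 58.9%. In vehicle organoids they were 80.4% and 72.6%, against 40.3%. The shares with AA on days 1 and 3 and with PGE2 on day 1, and the mitosis share with AA on day 6, lay within 10 percentage points of the background. The medians were -0.28 and -0.13 with AA on day 6 and -0.39 and -0.44 with PGE2 on day 3.

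Pold1 and Pold2 are subunits of polymerase delta, and Pole and Pole2 of polymerase epsilon. With AA, Pold2 (-0.49 ± 0.05), the clamp loader Rfc4 (-0.45 ± 0.07) and thymidine kinase Tk1 (-0.37 ± 0.06) fell on day 1, Pold1 (-0.42 ± 0.05), Topbp1 (-0.27 ± 0.04) and Pole (-0.33 ± 0.05) on day 3, and Rfc3 (-0.49 ± 0.06), Pole (-0.41 ± 0.05) and Rpa1 (-0.33 ± 0.05) on day 6. With PGE2, the nuclease Dna2 (-0.69 ± 0.05), Pold2 (-0.56 ± 0.05) and the histone chaperone Nasp (-0.43 ± 0.05) fell on day 1, and Pold1 (-0.77 ± 0.05), Dna2 (-0.71 ± 0.05) and Topbp1 (-0.51 ± 0.04) on day 3. Donson, which helps to assemble the helicase, rose on day 1 with AA (0.30 ± 0.08) and PGE2 (0.41 ± 0.08), and PGE2 also raised Pole2 (0.35 ± 0.08) and Orc1 (0.22 ± 0.06).

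Of the other mitosis genes, Cep55, which acts in abscission, Prc1, which bundles the central spindle, and Dlgap5 rose on day 1. Cep55 was higher by 0.30 ± 0.05 with AA and 0.51 ± 0.05 with PGE2, Prc1 by 0.22 ± 0.05 and 0.43 ± 0.05, and Dlgap5 by 0.20 ± 0.05 and 0.39 ± 0.05. Hmgb2, a chromatin protein, fell with PGE2 by 0.83 ± 0.05 on day 1 and 1.03 ± 0.05 on day 3, the condensin subunit Ncapd2 by 0.55 ± 0.05 and 0.78 ± 0.05, and Kif15 by 0.42 ± 0.05 and 0.70 ± 0.05. Gtse1 (0.46 ± 0.05) and Psrc1 (0.29 ± 0.07) rose with PGE2 on day 3. With AA, Hmgb2 (-0.41 ± 0.05), Ncapd2 (-0.35 ± 0.05) and Knstrn (-0.41 ± 0.07) fell on day 1, and on day 3 Ncapd2 (-0.45 ± 0.05), Kif15 (-0.39 ± 0.05) and Cdca2 (-0.41 ± 0.06) fell while Cep55 (0.20 ± 0.06), Gtse1 (0.18 ± 0.05) and Nek2 (0.21 ± 0.08) rose. On day 6 Spag5 (-0.28 ± 0.05), Cdca5 (-0.40 ± 0.07) and Hmgb2 (-0.31 ± 0.06) fell and the cohesin protector Sgo2a rose (0.22 ± 0.07).

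Of the 19 genes of the E2F, pocket protein and MuvB families, some rose and some fell with each treatment on each day. On day 1, E2f7, a repressor among the E2F factors, rose with AA (0.32 ± 0.07) and PGE2 (0.71 ± 0.07, adjusted p = 2.5e-10), and so did Mybl2, which encodes B-Myb (0.14 ± 0.05 and 0.45 ± 0.05). The pocket protein Rbl1 (-0.27 ± 0.05 and -0.34 ± 0.05) and the E2F partner Tfdp1 (-0.17 ± 0.04 and -0.27 ± 0.04) fell. On day 3, E2f2 rose with AA (0.45 ± 0.06) and PGE2 (0.55 ± 0.06), Mybl2 rose with AA (0.42 ± 0.05), and Foxm1 fell with both (-0.26 ± 0.07 and -0.49 ± 0.07). On day 6, E2f1 (-0.56 ± 0.11), Tfdp1 (-0.25 ± 0.05) and Foxm1 (-0.28 ± 0.07) fell with AA, and Rb1 (0.51 ± 0.12) and Rbl2 (0.22 ± 0.06) rose. In all, 2 rose and 8 fell with AA on day 1, 3 and 4 on day 3 and 2 and 3 on day 6, and with PGE2 2 and 7 on day 1 and 2 and 10 on day 3. These are 52.6, 36.8, 26.3, 47.4 and 63.2% of the list, against 41.7, 41.3, 30.7, 55.9 and 58.9% of all genes. In these treatments against vehicle, no share was more than 11 percentage points from that of all genes. The 10 that fell with PGE2 on day 3 stood against 30.1% of all genes falling. From day 1 to day 3 in vehicle organoids 1 rose and 11 fell, 63.2% of the list against 40.3% of all genes. Between the treatments on day 3, 9 were higher with AA than with PGE2 and 0 lower, 47.4% against 38.5%.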

How the data were processed

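RNA of 26 libraries in 8 groups was measured as raw counts of reads per gene, which the authors deposited as a table of the 2 earlier days and another of day 6. Per the submitters' processing notes, limma 3.46, DESeq2, STAR and cutadapt were used, with no role given for any of them. The notes name the human build GRCh38.p6, while the identifiers are mouse Ensembl identifiers; no source used here gives the counting program, its strand setting or its annotation. Symbols came from GENCODE M21.

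Tests used edgeR 4.0.16 (R 4.3.3) on the deposited counts, after filterByExpr and TMM scaling. Robust quasi-likelihood models, with a mean for each group, took the 18 early libraries (14850 genes, 12 residual degrees of freedom), the 8 of day 6 (14663 genes, 6) and, for day 6 minus day 3, all 26 (15504 genes, 18). The 11 comparisons used Benjamini-Hochberg adjustment over all genes tested. Rose and fell are written of genes with an adjusted p under 0.05 alone. CPM values have no prior count. Standard errors are the log2 fold change over the root of the F statistic.

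The members and lists were chosen with earlier results of these data known. Named were a panel of 18 members, with values by library in the comparisons where they are described, up to 4 called members with the smallest p in each direction and list, the members with the highest and lowest value, and up to 3 called genes per direction of the other pathway lists in treatments against vehicle; others were named after their values were seen. Alternatives were RLE size factors, total counts alone, no filter, leaving out mitochondrial and ribosomal RNA-like genes, a replicate block, DESeq2 1.42.0, only the groups compared, and leaving out each library. The procedure was tested on simulated data.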

Additional observations from a re-analysis of the deposited data

Results flagged for a closer look

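In the 4-library groups of day 6, 94 values were screened for 1 library far from the other 3, which chance gives in about 1 of 20, and 7 stood out. In the vehicle group the fourth library was low for Bub1 (39.2 CPM), Cenpe (159 CPM) and Smc4 (181 CPM) and high for Rfc2 (62.9 CPM), and the third was low for Mcm4 (123 CPM). In the AA group the first library was high for Kif11 (97.7 CPM) and low for Kif20a (67.1 CPM).

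Single members' responses to a treatment differed between days, by a test of the difference itself. For PGE2, day 3 minus day 1, 15 replication and 24 mitosis genes passed, against 24.2% of all genes, with log2 differences of -0.78 for Cdc6, -0.48 for Mcm2, -0.42 for Mcm4, -0.42 for Tyms, -0.95 for Anln, -0.58 for Ect2, -0.56 for Kif23 and -0.50 for Kif20a. For AA, day 3 minus day 1, 3 replication and 5 mitosis genes passed (12% and 16.1% of the lists), fewer in share than the 18% of all genes, so the counts are no result about the members. The values were 0.33 for Rrm2, -0.31 for Cdc6, -0.30 for Pola1, 0.33 for Cdca3, 0.28 for Aurka, 0.24 for Ccna2, -0.42 for Anln and -0.26 for Ect2. For AA, day 6 minus day 3, 8 replication and 5 mitosis genes passed (32% and 16.1%), against 19.1% of all genes, so the mitosis count is no result about the members either. Day and count table cannot be told apart in this comparison. The values were -0.46 for Rrm2, -0.37 for Mcm6, -0.39 for Mcm3, -0.36 for Mcm5, 0.38 for Ect2, -0.42 for Birc5, -0.41 for Cdc20, -0.25 for Kif20a and -0.24 for Aurka.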

How the results depend on the processing

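Of 326 recomputed counts of members called, 303 stayed within 1.5 times the main count with the same leading direction, and of 9128 recomputed results of single members none reversed a call, 387 lost it and 125 gained it. With AA on day 1, the replication count of 13 was 8 without mitochondrial and ribosomal RNA-like genes, 8 with DESeq2, and 8 to 13 with a library left out. With AA on day 6, the mitosis count of 13 was 6 to 16 with a library left out. For AA against PGE2 on day 1, the replication count of 6 was 10 in a fit of those groups alone and 3 to 4 with a library left out, and the mitosis count of 7 was 11 with total counts alone and 13 in a fit of those groups alone. For the response to AA, day 3 minus day 1, the mitosis count of 5 was 3 with total counts alone (1 higher, 2 lower) and 4 to 7 with a library left out, where 2 higher and 3 lower of 5 without the third vehicle library of day 1, and 2 and 4 of 6 without the second vehicle library of day 3, turned the leading direction. For day 6 minus day 3, the replication count of 8 was 4 to 10 with a library left out, and the mitosis count of 5 was 3 with total counts alone and 3 to 8 with a library left out. The causes were not tested. With the bases after the start included, the shares of all promoters were 28.8% for CHR, 37.4% for CCAAT, 2.26% for E2F and 11.3% for CHR with CCAAT. Those of mitosis promoters were 88.9% for CHR and 77.8% for CHR with CCAAT. Those of replication promoters were 26.1% for CHR, 73.9% for CCAAT, 39.1% for E2F and 21.7% for CHR with CCAAT.

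Libraries with the same replicate number were little alike: 22 correlations of same-numbered deviations ran from -0.08 to 0.14, and 1 was over 0.1. Whether the libraries were paired is not given, and such correlations cannot show that they were not. With the replicate block, 24 replication and 29 mitosis genes were called for PGE2 on day 3, 22 and 12 for AA on day 6, 11 and 16 for AA on day 1, 12 and 16 for AA on day 3 and 17 and 22 for PGE2 on day 1. No count of members moved by over 1.5 times under it.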
